A study of Mus musculus with 16 samples.

Results

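The inflammasome and NOD receptor genes are 8 named genes, Nlrp3, Casp1, Casp4, Pycard, Gsdmd, Nod1, Nod2 and Ripk2, followed across 4 treatments of mouse macrophage-like cells. They were taken by symbol from 18820 genes with a probe set that names 1 gene, and 7 of the 8 were measured. Ripk2 is not analysed here, because the gene table of the array pairs no probe set with it. RAW264.7, a mouse macrophage-like line, was kept for 24 h with lipopolysaccharide (LPS, 1 µg/ml) plus docosahexaenoyl serotonin (DHA5HT, 1 µM), with LPS and vehicle, with DHA5HT alone, or with vehicle alone, in 4 arrays each. DHA5HT is an amide of an n-3 fatty acid and serotonin, and the labels name ethanol at 0.1% by volume as the solvent of the control arrays. All values are log2 intensities, in which a difference of 1 is a doubling, and each array is 1 sample of a single cell line whose origin from a separate culture is not stated, so errors and p-values measure the spread between these samples and may be technical.

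Inflammasomes are cytosolic complexes in which a sensor such as NLRP3 binds the adaptor ASC, the product of Pycard, which in turn gathers and activates caspase-1, the product of Casp1. Casp4, known in the mouse as caspase-11, encodes a caspase that binds cytosolic LPS directly. Both caspases cut gasdermin D, the product of Gsdmd, whose freed end forms pores in the plasma membrane, and caspase-1 also matures the precursors of IL-1 beta and IL-18. NOD1 and NOD2 sense fragments of bacterial peptidoglycan and signal to NF-kB through the kinase encoded by Ripk2. In macrophages, transcription of several of these genes is known as priming, a step that comes before the complex assembles. RAW264.7 cells have been described as lacking ASC protein, which the arrays do not measure.

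On the first principal component of the 18820 genes, with 70.6% of the variance, the arrays with LPS lay apart from those without. LPS+DHA5HT array 4 stood at −22.42 on the second component, against −9.36 to 10.02 for the other arrays. The title of LPS+DHA5HT array 1 names both agents while its treatment label names DHA5HT alone. On the first component this array stood at 22.69. The other LPS+DHA5HT arrays stood at 24.49 to 29.49 and the DHA5HT arrays at −33.58 to −30.99. It was kept under its title, and without it the count of members that passed between LPS+DHA5HT and LPS was also 0 of 7. The 8 macrophage markers had means over the 16 arrays of 8.93 (Adgre1) to 12.55 (Cd68), and 17 measured markers of lymphocytes, epithelial cells and fibroblasts had means of 2.77 to 5.32 with a median of 3.66. Averaged per array, the macrophage markers lay at 11.55 to 11.60 with LPS+DHA5HT, 11.55 to 11.65 with LPS, 10.85 to 10.98 with DHA5HT and 10.84 to 11.01 in controls. With LPS, 12.6% of all genes rose and 15.8% fell (limma adjusted p under 0.05). Of the 8 macrophage markers 4 rose, Adgre1 by 3.94, Fcgr1 by 1.07, Cd14 by 0.50 and Itgam by 0.30, and 2 fell, Csf1r by 0.20 and Lyz2 by 0.19 (limma adjusted p at most 0.0303). Their part in the results was not tested. The other markers averaged 3.84 to 3.94, 3.85 to 3.91, 3.81 to 3.88 and 3.78 to 3.85 per array in the same order of groups. Of these 17 markers 1 passed with LPS, the fibroblast marker Dcn (0.52, limma adjusted p = 6.51e-05), where 28.4% of all genes passed. With LPS+DHA5HT against DHA5HT, where 28.1% of all genes did, Dcn (0.30, limma adjusted p = 0.00875) and the T-cell marker Cd3d (0.23, adjusted p = 0.049) passed. Their part in the results was not tested. In these bulk RNA samples, fewer cells of a state and less RNA per cell cannot be told apart. Nod1, at 3.90 to 4.83, lay within the range of the markers that macrophages should lack, and the other 6 members lay above that range on each array.

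**Figure D1:**
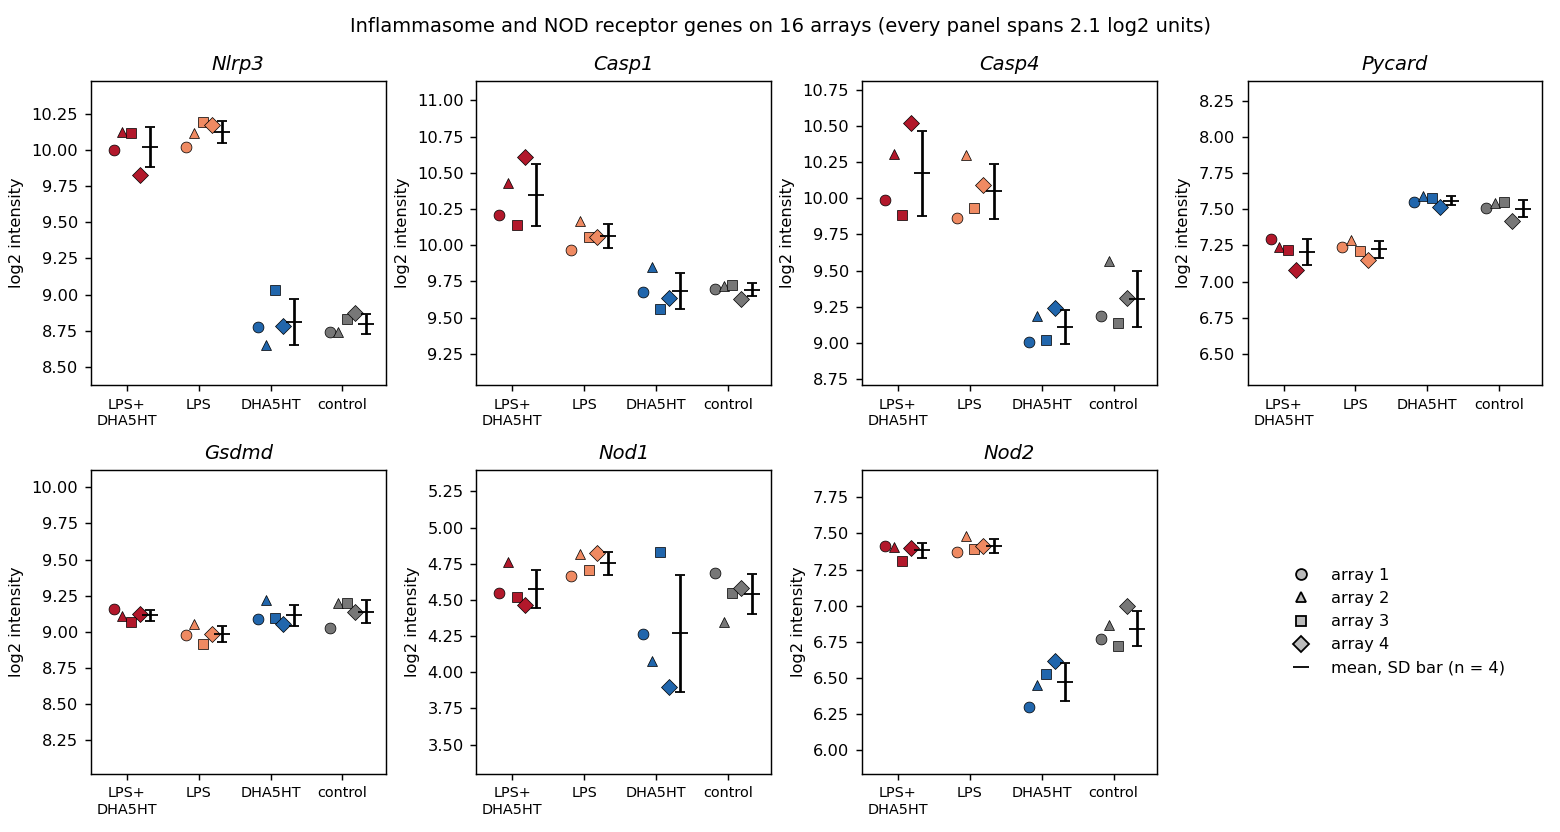
Log2 intensity of the 7 measured genes on 16 arrays, 1 panel per gene, with groups on the horizontal axis, 1 point per array and the mean with its SD (n = 4) beside the points. Nlrp3 lay at 9.83 to 10.19 on the arrays with LPS and at 8.65 to 9.03 on those without, and Nod2 on the DHA5HT arrays (6.30 to 6.62) lay below its control arrays (6.73 to 6.998).

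LPS against control asks how the genes responded to the bacterial stimulus. The sensor Nlrp3 rose 2.51-fold, the caspase genes Casp4 and Casp1 rose 1.68-fold and 1.29-fold, and the peptidoglycan receptor Nod2 rose 1.49-fold. Pycard, the adaptor, fell 1.22-fold, and Gsdmd, the pore-forming substrate, fell 1.11-fold. Nod1 did not pass the test. Of the 7 measured members 6 passed, 4 higher and 2 lower (limma, Benjamini-Hochberg adjusted over 18820 genes, threshold 0.05), where 28.4% of all genes passed, 12.6% higher and 15.8% lower. The median difference was 0.37 over the 7 members and 0.0041 over all genes. Members were chosen with earlier results of these data known, so their counts beside the share of all genes are descriptions.

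Among the sensors, Nlrp3 stood at 10.02, 10.12, 10.19 and 10.17 on LPS arrays 1 to 4, against 8.74, 8.74, 8.83 and 8.88 on control arrays 1 to 4. The groups were over 1 log2 unit apart at their closest, and the difference was 1.33 (SE 0.08, limma adjusted p = 1.08e-09). Nod2 stood at 7.37, 7.48, 7.39 and 7.41 on the LPS arrays, against 6.77, 6.87, 6.73 and 6.998 on the control arrays. Each LPS array lay above each control array, by 0.57 on average (SE 0.07, limma adjusted p = 6.62e-06), and the LPS arrays were closer together (SD 0.05) than the control arrays (SD 0.12). Nod1, the receptor for the other class of peptidoglycan fragment, averaged 4.75 ± 0.08 in LPS arrays and 4.54 ± 0.14 in control arrays (SD, n = 4 each). Its groups overlapped, and the difference of 0.21 had a 95% interval of −0.09 to 0.51.

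Of the caspase genes, Casp4 stood at 9.86, 10.30, 9.93 and 10.09 on the LPS arrays, against 9.19, 9.57, 9.14 and 9.31 on the control arrays. The lowest LPS array still exceeded the highest control array, array 2, which is also where the LPS group had its highest value; the difference was 0.74 (SE 0.13, limma adjusted p = 0.000255). Casp1 stood at 9.96, 10.17, 10.06 and 10.06 on the LPS arrays, against 9.70, 9.72, 9.72 and 9.63 on the control arrays. These groups did not overlap either, at a smaller difference of 0.37 (SE 0.09, limma adjusted p = 0.00413).

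The adaptor and the pore-former went the other way. Pycard stood at 7.24, 7.28, 7.21 and 7.15 on the LPS arrays, against 7.51, 7.54, 7.55 and 7.42 on the control arrays. Every LPS array was below every control array, by 0.28 on average (a difference of −0.28, SE 0.06, limma adjusted p = 0.000908). Gsdmd stood at 8.98, 9.05, 8.92 and 8.99 on the LPS arrays, against 9.03, 9.20, 9.20 and 9.14 on the control arrays. LPS array 2 lay above control array 1, so these groups overlapped, and the difference of −0.16 (SE 0.06) passed narrowly (limma adjusted p = 0.0499). When 1 array was omitted, Gsdmd still passed without control array 1 and without LPS array 2, and missed the threshold 6 times of 8 (differences of −0.16 to −0.14, adjusted p 0.0838 to 0.133). Groups of 5 of the 7 members did not overlap, as was the case for 29.8% of all genes.

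RefSeq promoter windows of 250 bases before to 50 bases after a start (build GRCm38.p6) were found for 6 of the 8 genes, 9 windows in all. The 5 shown are 1 window each of the 4 genes that rose with LPS and of Pycard, which fell. Nlrp3, Casp4 and Nod1 had 2 windows each. Letters are 5′ to 3′ on the gene's strand. Capitals mark matches to the motifs searched on both strands, which were the NF-kB patterns GGNNTTTCC and GGNNTTCCC, the interferon-stimulated response element GAAANNGAA, the AP-1 site TGANTCA, the cAMP response element TGACGTCA and the E-box CACGTG.
Nlrp3, chr11:59542436-59542735, plus strand: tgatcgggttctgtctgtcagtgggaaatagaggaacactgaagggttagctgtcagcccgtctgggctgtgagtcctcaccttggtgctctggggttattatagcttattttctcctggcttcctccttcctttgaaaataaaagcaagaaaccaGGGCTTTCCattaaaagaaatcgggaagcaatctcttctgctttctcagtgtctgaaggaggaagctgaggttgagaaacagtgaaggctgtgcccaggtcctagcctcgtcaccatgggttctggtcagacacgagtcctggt
Nod2, chr8:88647097-88647396, plus strand: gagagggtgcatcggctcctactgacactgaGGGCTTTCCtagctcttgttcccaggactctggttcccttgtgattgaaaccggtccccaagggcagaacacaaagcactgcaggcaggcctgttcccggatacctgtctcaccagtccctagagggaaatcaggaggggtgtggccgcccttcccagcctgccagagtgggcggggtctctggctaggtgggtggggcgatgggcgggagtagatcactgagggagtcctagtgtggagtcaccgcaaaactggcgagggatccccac
Casp4, chr9:5308599-5308898, plus strand: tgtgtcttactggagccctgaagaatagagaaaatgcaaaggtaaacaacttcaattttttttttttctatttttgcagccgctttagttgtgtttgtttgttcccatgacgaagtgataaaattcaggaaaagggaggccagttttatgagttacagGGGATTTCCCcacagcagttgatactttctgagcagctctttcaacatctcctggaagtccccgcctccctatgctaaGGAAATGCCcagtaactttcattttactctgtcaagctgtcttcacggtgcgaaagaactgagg
Casp1, chr9:5298267-5298566, plus strand: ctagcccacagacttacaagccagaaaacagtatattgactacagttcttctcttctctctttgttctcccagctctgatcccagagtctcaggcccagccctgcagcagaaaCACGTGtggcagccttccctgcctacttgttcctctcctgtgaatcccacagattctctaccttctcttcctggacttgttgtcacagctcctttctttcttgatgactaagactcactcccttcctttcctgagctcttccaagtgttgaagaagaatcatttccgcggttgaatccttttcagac
Pycard, chr7:127993818-127994117, minus strand: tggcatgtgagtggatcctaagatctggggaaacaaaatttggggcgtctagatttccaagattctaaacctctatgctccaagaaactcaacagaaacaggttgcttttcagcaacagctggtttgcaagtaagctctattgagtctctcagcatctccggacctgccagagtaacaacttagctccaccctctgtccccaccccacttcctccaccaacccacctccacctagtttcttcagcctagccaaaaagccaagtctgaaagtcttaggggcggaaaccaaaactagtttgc

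Matches to the NF-kB patterns were in windows of Nlrp3, Casp4 and Nod2, 3 of the 4 genes that rose. Counted from the start, the Nlrp3 match lay at −94 to −86, and its other window (not shown) held 2 further matches on the opposite strand. The Casp4 window held a pair of overlapping matches to both patterns, at −92 to −84 and −91 to −83, and 1 on the opposite strand at −14 to −6. The other Casp4 window (not shown) overlaps this one and held the same matches. In Nod2 the match lay at −219 to −211. The Casp1 window held an E-box at −137 to −132, and in the windows of Pycard and Nod1 none of these letters were found. Of 32817 RefSeq promoter windows of the same length, 10.9% held either NF-kB pattern (5.83% and 5.82% for each), 8.55% the interferon-stimulated response element, 7.81% the AP-1 site, 1.79% the cAMP response element and 7.15% the E-box. These shares are per window, while the members had 1 or 2 windows each. A match describes letters and does not show binding.

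The design text sets DHA5HT against vehicle in cells given LPS. None of the 7 members passed the test between LPS+DHA5HT and LPS arrays, where 1.79% of all genes did (3.44% with the replicate block). The largest difference was that of Casp1, 0.29 higher with LPS+DHA5HT. The count was 0 of 7 in limma, with 2 of 7 (Casp1 and Gsdmd) at an unadjusted p under 0.05, a level that 13.7% of all genes reached. The median difference was −0.01 over the 7 members and 0.002 over all genes.

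Casp1 stood at 10.21, 10.43, 10.14 and 10.61 on LPS+DHA5HT arrays 1 to 4, against 9.96, 10.17, 10.06 and 10.06 on LPS arrays 1 to 4. LPS+DHA5HT array 3 lay below LPS array 2, so the groups overlapped; the difference of 0.29 (SE 0.09) had an interval of 0.10 to 0.48 and did not pass (limma adjusted p = 0.132, unadjusted p = 0.00552). Array 4, which stood apart on the second component, was the highest of all 16 for Casp1 and Casp4. Without it the Casp1 difference was 0.20 (limma adjusted p = 0.325). Gsdmd stood at 9.16, 9.11, 9.07 and 9.13 on the LPS+DHA5HT arrays, against 8.98, 9.05, 8.92 and 8.99 on the LPS arrays. It was the 1 member of 7 whose groups did not overlap, as was true of 7.89% of all genes, and its difference of 0.13 (SE 0.06) did not pass (limma adjusted p = 0.317).

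The other 5 members overlapped between these groups. Casp4 stood at 9.99, 10.30, 9.88 and 10.52 on the LPS+DHA5HT arrays, against 9.86, 10.30, 9.93 and 10.09 on the LPS arrays (difference 0.13, interval −0.15 to 0.40). Nlrp3 stood at 10.00, 10.12, 10.12 and 9.83 on the LPS+DHA5HT arrays, against 10.02, 10.12, 10.19 and 10.17 on the LPS arrays (difference −0.11, interval −0.28 to 0.07). LPS+DHA5HT array 4 had the lowest Nlrp3 value of the 8 arrays with LPS and the lowest Pycard value of all 16. Nod2 stood at 7.41, 7.41, 7.31 and 7.40 on the LPS+DHA5HT arrays, against 7.37, 7.48, 7.39 and 7.41 on the LPS arrays (difference −0.03, interval −0.18 to 0.12). LPS+DHA5HT array 3 had the lowest Nod2 value of these 8 arrays and LPS array 2 the highest. Pycard stood at 7.29, 7.24, 7.22 and 7.08 on the LPS+DHA5HT arrays, against 7.24, 7.28, 7.21 and 7.15 on the LPS arrays (difference −0.01, interval −0.14 to 0.11). Nod1 stood at 4.55, 4.76, 4.52 and 4.47 on the LPS+DHA5HT arrays, against 4.66, 4.82, 4.71 and 4.82 on the LPS arrays (difference −0.18, interval −0.48 to 0.12). The intervals set the size of change that these arrays leave possible, and an adjusted p above the threshold does not show equal levels.

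**Figure D2:**
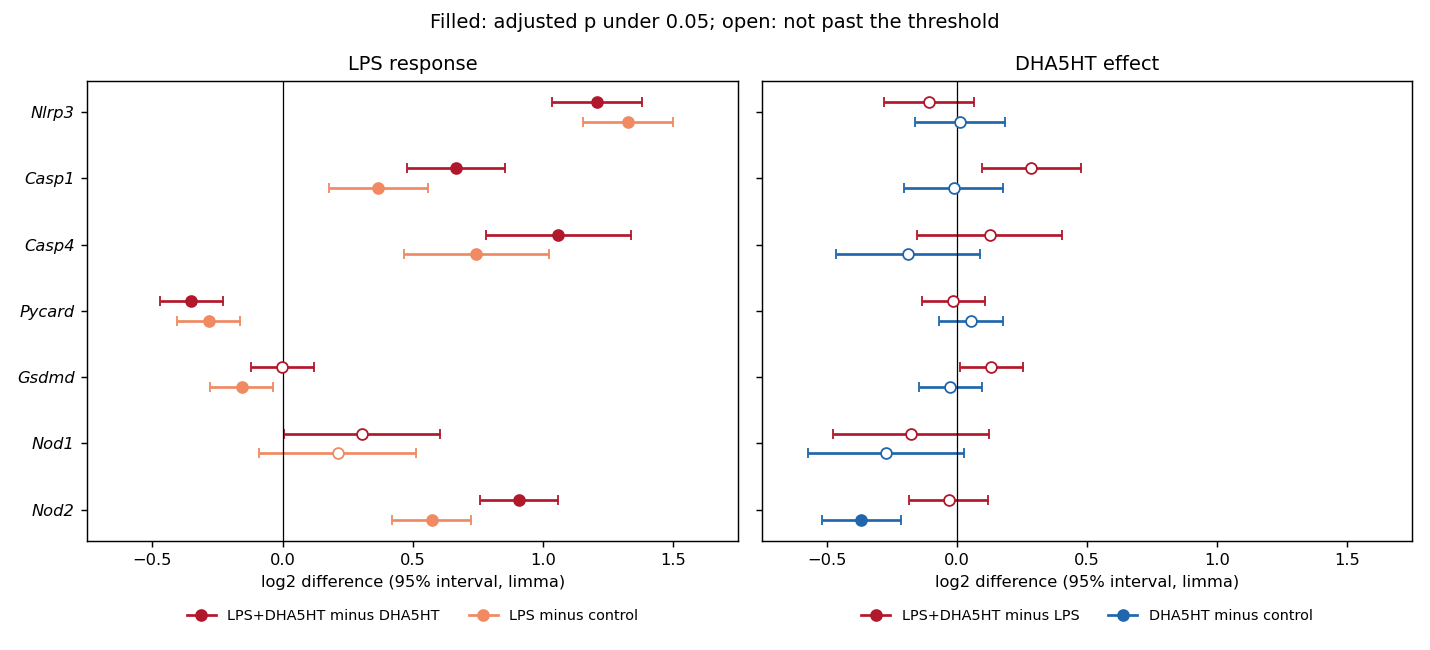
Log2 differences of the 7 members with 95% intervals (limma, 4 arrays a group); the left panel gives the LPS response with and without DHA5HT and the right panel the DHA5HT effect with and without LPS, and filled points passed an adjusted p of 0.05. In the right panel 1 point is filled, that of Nod2 without LPS (−0.37, interval −0.52 to −0.22).

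DHA5HT without LPS was set against the same control arrays as LPS. Nod2 fell 1.29-fold and was the 1 of 7 members that passed, in a comparison where 0.478% of all genes fell and 0.6% changed in either direction (0.951% with the replicate block). Nod2 stood at 6.30, 6.45, 6.53 and 6.62 on DHA5HT arrays 1 to 4, against 6.77, 6.87, 6.73 and 6.998 on control arrays 1 to 4. The groups did not overlap, as was true of 5.89% of all genes, and the difference was −0.37 (SE 0.07, limma adjusted p = 0.0182). The Nod2 call was lost without DHA5HT array 1 or 2 or control array 2 or 4 (−0.36 to −0.31, adjusted p 0.0637 to 0.0878) and in a fit on the 8 compared arrays alone (adjusted p = 0.143). In the same comparison 1 of the 8 macrophage markers passed, Fcgr1, a receptor for IgG, which fell by 0.46 (limma adjusted p = 0.0264), and its part in the Nod2 difference was not tested.

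Nod1 was the least even member among DHA5HT arrays, at 4.27, 4.08, 4.83 and 3.90, against 4.69, 4.35, 4.55 and 4.58 on the control arrays. Array 3 was the highest Nod1 value of the 16 arrays and array 4 the lowest, and the difference of −0.27 (SE 0.14) did not pass (limma adjusted p = 0.560). Without DHA5HT array 3 it was −0.46 (limma adjusted p = 0.0453), between levels that lie in the range of the markers macrophages should lack. Nlrp3 averaged 8.81 ± 0.16 in DHA5HT arrays and 8.80 ± 0.07 in control arrays, and Casp1 averaged 9.68 ± 0.12 and 9.69 ± 0.04 in the same order. Casp4 averaged 9.11 ± 0.12 in DHA5HT arrays and 9.30 ± 0.19 in control arrays (SD, n = 4 each), a difference of −0.19 with an interval of −0.47 to 0.09. Pycard (difference 0.05) and Gsdmd (difference −0.03) had intervals of −0.07 to 0.17 and −0.15 to 0.10.

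The LPS response in the presence of DHA5HT sets LPS+DHA5HT arrays against DHA5HT arrays, with the spread estimated over all 16 arrays as in the other comparisons. Of the 7 members 5 passed, 4 higher and 1 lower, where 28.1% of all genes passed, 12.4% higher and 15.7% lower. The genes that rose were again Nlrp3, Casp1, Casp4 and Nod2, and the gene that fell was Pycard. Nlrp3 changed by 1.21 (SE 0.08, limma adjusted p = 4.5e-09) with DHA5HT present, beside 1.33 without it. Casp4 changed by 1.06 beside 0.74, Casp1 by 0.67 beside 0.37, Nod2 by 0.91 beside 0.57 and Pycard by −0.35 beside −0.28. Gsdmd, at 9.11 ± 0.04 in LPS+DHA5HT arrays and 9.11 ± 0.07 in DHA5HT arrays (SD, n = 4 each), did not pass (interval −0.12 to 0.12). Nod1 did not pass with all arrays (0.31, limma adjusted p = 0.132). With 1 array omitted it passed 1 time of 8, without DHA5HT array 3 (0.49, limma adjusted p = 0.00099). That array held the highest Nod1 value of the 16. Nod1 lay within the range of the markers macrophages should lack.

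Whether the DHA5HT effect differed with and without LPS was tested as the difference between both effects, which is also the difference between both LPS responses. None of the 7 members passed in limma, where 0.329% of all genes did (0.51% with the replicate block), and 2 of 7 had an unadjusted p under 0.05 against 7.65% of all genes. These were Nod2 (0.34, SE 0.10, unadjusted p = 0.0042, adjusted p = 0.299) and Casp1 (0.30, SE 0.13, unadjusted p = 0.0315, adjusted p = 0.589). For Nod2 the effect of DHA5HT was −0.03 with LPS and −0.37 without, and for Casp1 it was 0.29 with LPS and −0.01 without. The intervals of the differences were 0.12 to 0.55 for Nod2 and 0.03 to 0.57 for Casp1, before any adjustment for 18820 tests.

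The cytokine genes downstream of the complex were followed beside the members. Il1b, the precursor of IL-1 beta that caspase-1 cuts, stood at 12.52 in LPS arrays and 4.42 in control arrays, a difference of 8.10 (SE 0.14, limma adjusted p = 8.55e-17). The control mean lay within the range of the absent-cell markers (2.77 to 5.32), so the size of this difference rests on a level near background. Il1a rose by 8.81 over a control mean of 3.14, which is below the median of the absent-cell markers. Il18, the other cytokine that caspase-1 matures, averaged 7.45 in LPS arrays and 7.38 in control arrays and did not pass (0.07, limma adjusted p = 0.717). Gsdme, a gasdermin cut by caspase-3, fell by 0.29 (limma adjusted p = 0.0341), and with 1 array omitted it passed only without control array 3 or 4 (differences of −0.30 to −0.23 and adjusted p 0.0524 to 0.120 in the other 6, and 0.0617 with all probe sets tested). Of 5 measured genes of this list 2 rose and 1 fell, where 12.6% of all genes rose and 15.8% fell. The median was 0.25 over the list and 0.0041 over all genes.

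The counts of the next lists stand beside 12.6% of all genes that rose and 15.8% that fell with LPS. These lists and the one above were chosen with earlier results of these data known, so their counts are descriptions. Among 13 measured other sensors 4 rose and 2 fell. Nlrc5, which drives MHC class I genes, rose by 0.78, while Nlrc3, described as a brake on innate signalling, fell by 0.72 and Nlrp1b, the sensor of anthrax lethal factor in mice, fell by 0.41. Of 19 triggers and regulators 8 rose and 4 fell. The guanylate-binding protein genes Gbp5 (3.98) and Gbp2 (3.85), whose products act on bacteria and inflammasomes, and Zbp1 (2.38), a sensor of Z-form nucleic acids, rose most among those that passed. The Gbp5 control mean of 3.44 was below the median of the absent-cell markers. Of 19 NOD signalling partners 5 rose and 5 fell, with Tnfaip3, the ubiquitin-editing brake A20, at 1.40, the ubiquitin ligase gene Birc3 at 0.80 and the deubiquitinase gene Cyld at −0.50. Of 5 muropeptide transporters Slc15a3 rose by 0.77 and Slc15a4 fell by 0.36. Medians of these lists were −0.01 for other sensors, 0.23 for triggers, 0.07 for NOD partners and −0.04 for transporters, beside 0.0041 for all genes.

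**Figure D3:**
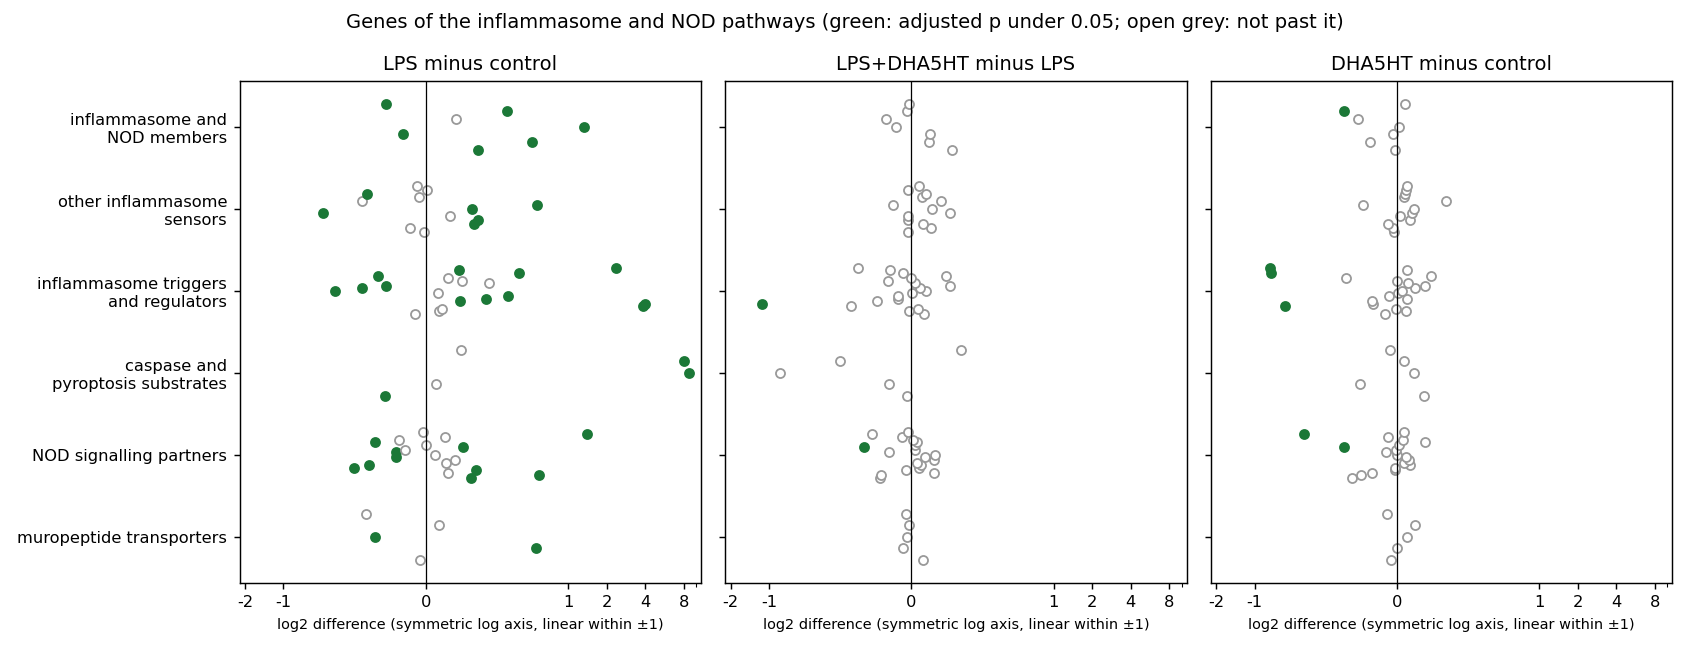
Log2 differences of each gene, by pathway list, for LPS minus control, LPS+DHA5HT minus LPS and DHA5HT minus control; filled points passed an adjusted p of 0.05, and the axis is a symmetric log scale, linear within ±1. With LPS the Il1a and Il1b points lie beyond 8, and in the panels for DHA5HT 2 and 5 genes outside the 7 members passed, each of them lower.

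With LPS present, 2 of the 61 measured genes of these 5 lists passed with DHA5HT, and 5 of 61 passed with the replicate block, where 1.79% and 3.44% of all genes did. Since earlier results of these data were known when the lists were chosen, these counts are descriptions. The 3 added by the block were Zbp1 (−0.37, adjusted p = 0.0378 with the block and 0.151 without), Il1a (−0.93, 0.0201 and 0.0539) and Ninj1 (0.35, 0.0112 and 0.0619). Gbp5 fell by 1.14 (6.28 in LPS+DHA5HT arrays, 7.42 in LPS arrays, limma adjusted p = 0.00858, and 0.0700 in a fit on the 8 compared arrays). Rnf31, the catalytic subunit of the linear ubiquitin ligase that acts downstream of NOD2, fell by 0.33 (7.12 in LPS+DHA5HT arrays, 7.46 in LPS arrays, adjusted p = 0.0267). With 1 array omitted, Rnf31 missed the threshold 6 times of 8 (differences of −0.33 to −0.29, adjusted p 0.0511 to 0.0849), and it passed when the array omitted was number 1 of LPS or number 4 of LPS+DHA5HT. It also missed it with all probe sets tested (adjusted p = 0.063) and in a fit on the 8 compared arrays (adjusted p = 0.0716). Il1b averaged 12.02 in LPS+DHA5HT arrays and 12.52 in LPS arrays and did not pass (−0.50, limma adjusted p = 0.0848), while with an intensity trend or without dim genes it did (adjusted p = 0.0456 and 0.0466). Il18 did not pass either (−0.16, adjusted p = 0.577). In limma without the block 0 of 13 other sensors (0 at an unadjusted p under 0.05), 0 of 5 substrates (3 unadjusted) and 0 of 5 transporters (0 unadjusted) passed. That unadjusted level was also reached by 7 of 19 triggers and regulators and 6 of 19 NOD signalling partners, and by 13.7% of all genes. Of the 5 substrates, 2 passed with the block and 3 with an intensity trend or without dim genes, 1 of them higher in each case.

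Without LPS, 5 of these 61 genes fell with DHA5HT, where 0.478% of all genes did, and 6 of 61 fell with the replicate block. Because the lists were chosen with earlier results of these data known, a count above that share is no test of the lists. The gene added by the block was Ticam1, the adaptor TRIF (−0.36, adjusted p = 0.0336 with the block and 0.0604 without). The 5 without the block were Zbp1 (−0.89), Trim30a (−0.89), described in mice as a negative regulator of NF-kB and of NLRP3, Gbp2 (−0.78), Tnfaip3 (−0.65) and Rnf31 (−0.37). Gbp2 averaged 5.00 in DHA5HT arrays, within the range of the absent-cell markers, and 5.79 in control arrays, so its difference reaches down to a level near background. Tnfaip3 averaged 6.04 in DHA5HT arrays and 6.69 in control arrays (limma adjusted p = 0.00513). The Gbp2 call (adjusted p = 0.0122) was lost without DHA5HT array 1 or 3 or control array 4 (adjusted p 0.0545 to 0.0643) and with all probe sets tested (0.0502), and the Rnf31 call (adjusted p = 0.0163) without DHA5HT array 1 or 2 or control array 2 or 4 (adjusted p 0.0626 to 0.0830) and in a fit on the 8 compared arrays (0.0846). Il1b (0.05, adjusted p = 0.948) and Il18 (−0.26, adjusted p = 0.444) did not pass. In limma 0 of 13 other sensors (1 unadjusted), 0 of 5 substrates (1 unadjusted) and 0 of 5 transporters (0 unadjusted) passed. At an unadjusted p under 0.05 were also 7 of 19 triggers and regulators and 5 of 19 NOD signalling partners. The share of all genes at that level is not given here, so nothing is read from these unadjusted counts. In the LPS response with DHA5HT present, Nlrp10 fell by 0.58 (4.74 in LPS+DHA5HT arrays, 5.33 in DHA5HT arrays, adjusted p = 0.0259), levels within or just above the range of the absent-cell markers. It missed the threshold on omitting array 1 or 4 of DHA5HT or array 3 or 4 of LPS+DHA5HT (adjusted p 0.0599 to 0.0868) or testing all probe sets (0.0576). Tab1, a partner of the kinase TAK1, fell by 0.51 and Ninj1, which ruptures the membrane late in pyroptosis, rose by 0.64.

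**Figure D4:**
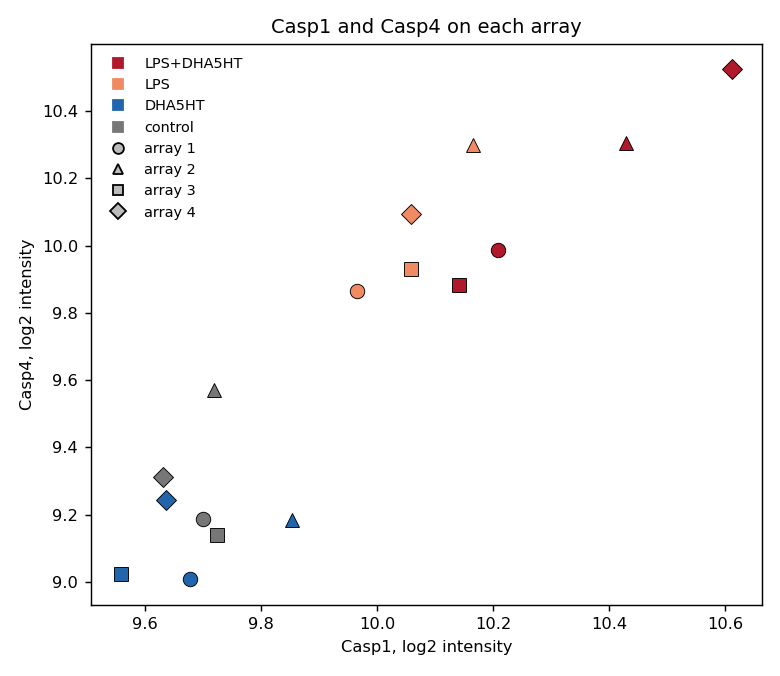
Casp4 against Casp1 log2 intensity on each of the 16 arrays, coloured by group with a marker shape per array number. LPS+DHA5HT array 4 is highest for both genes (10.61 for Casp1 and 10.52 for Casp4), and array 2 is the highest Casp4 array of the LPS and control groups.

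Casp1 and Casp4 encode related caspases and are neighbours on chromosome 9, with 0 protein-coding genes between them in RefSeq. After each group's mean was removed, their values over the 16 arrays had a Pearson r of 0.76 and a Spearman rho of 0.71, the highest r of the 21 pairs of members. In a permutation test of r with 100000 resamples, adjusted over the 21 pairs, 0 pairs passed the threshold of 0.05, this pair included. Arrays of the same number are not independent, which such a test leaves out, so these correlations are descriptions. Array 2 lay above its group's mean for both genes in all 4 groups, and array 1 lay below it for Casp4 in all 4. The r was 0.66 without LPS+DHA5HT array 4 and 0.56 without arrays 3 and 4 of that group, the 2 farthest from the median of Casp1. Whether probes of the 2 genes share targets was not tested.

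The genes whose levels over the 16 arrays were most like each member's were named by Pearson r, a description in which the arrays share the 4 treatments. For Nlrp3 they were St3gal3 (r = 0.99) and Socs3 (0.99), and for Casp1 Prr13 (0.97) and Ift20 (0.97). For Casp4 they were Sphk2 (0.98) and Sptlc2 (0.98), and for Pycard Il12rb2 (0.98) and Rassf2 (0.97). Nod2 was most like Acod1 (0.99), the enzyme that makes itaconate, and Bst2 (0.99), the antiviral tetherin. With DHA5HT alone Acod1 differed from control by −1.22 and Bst2 by −0.98, with LPS by 3.57 and 1.18. Both genes were picked for their likeness to Nod2 on these same arrays, so their differences are not separate evidence on Nod2. The members with small differences had less similar neighbours, Uqcc3 (0.89) and Akr1a1 (0.88) for Gsdmd and Akirin2 (0.80) and Gss (0.79) for Nod1.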

How the data were processed

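RNA of RAW264.7 cells (100 ng per array, RNA integrity number above 8.0 per the labels) was hybridised to Affymetrix whole-transcript arrays, 16 in all. The authors deposited log2 intensities, and the submitters' processing notes name RMA. No version, annotation or filter is given in the sources used here. The number of arrays limits precision. Of 35556 probe sets, 21218 named 1 gene, 1881 several and 12457 none. The brightest probe set of each gene was kept, which left 18820 genes, and each of the 7 measured members had 1 probe set. From the deposited log2 values, limma 3.58.1 in R 4.3.3 fitted 4 group means (lmFit and eBayes, 12 residual degrees of freedom, two-sided) for 5 comparisons, with Benjamini-Hochberg adjustment over all genes and a threshold of 0.05. LPS against control and DHA5HT against control share the control arrays, and the first 2 comparisons share the LPS arrays. Same-numbered arrays deviated together in both DHA5HT comparisons (correlation 0.12 to 0.20 with LPS and 0.13 to 0.18 without). They also did so in the LPS comparisons (0.10 to 0.13 without DHA5HT and 0.07 to 0.23 with it). Of the 16 arrays, 15 were closest to an array of their own number, so the numbers pair the arrays. Differences and p-values are from the fit without the number as a block, which leaves this pairing out. Counts with the block stand beside the DHA5HT counts that it moved, and the block changed no call of a member. The procedure was also run on simulated arrays drawn without a shared effect of array number, so that run says nothing on the pairing. Named genes were the members, the 3 largest passing differences of each pathway list, Il1b, Il18 and the 2 genes most like each member. Members and lists were chosen with earlier results of these data known. The alternatives are those of the closing section. Figures used matplotlib 3.10.9 in Python 3.11.15.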

Additional observations from a re-analysis of the deposited data

Results flagged for a closer look

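The DHA5HT effect on Trim30a differed with and without LPS. It was −0.06 with LPS (11.21 in LPS+DHA5HT arrays, 11.26 in LPS arrays) and −0.89 without it (9.72 in DHA5HT arrays, 10.60 in control arrays), and the difference between these effects was 0.83 (SE 0.15, limma adjusted p = 0.0209). The call was lost without DHA5HT array 1 or 3 or LPS array 1 or 2 (0.79 to 0.83, adjusted p 0.0509 to 0.0568) and with all probe sets tested (adjusted p = 0.0886). In 36 tests for a single array far from the other 3 of its group (the 7 members, Il1b and Il18 in 4 groups), 0 passed Dixon's limit.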

How the results depend on the processing

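No call of Nlrp3, Casp1, Casp4 or Pycard changed under any alternative in any of the 5 comparisons, and no call of Nod2 in the LPS comparisons. In the DHA5HT comparison without LPS, 0 members were called with the compared arrays alone and 0 to 2 when 1 array was left out; the cause was not tested. Of all 18820 genes, the comparison of LPS+DHA5HT with LPS called 337, against 647 with the replicate block and 86 with the compared arrays alone. It called 143 to 289 when 1 array was left out. On other sets it called 557 of the genes brighter than the median gene and 139 of the 35556 probe sets. Those 2 counts have other totals and are not to be set beside 337. DHA5HT against control called 113, and 179 with the block. The difference between effects called 62, against 96 with the block and 34 to 62 when 1 array was left out. It called 28 of the 35556 probe sets, again a count with another total. The block changed no call of a member. Of the pathway lists in the comparison of LPS+DHA5HT with LPS, it called 2 triggers and regulators against 1, and 2 substrates against 0. Gsdmd lost its LPS call with all probe sets (adjusted p = 0.0551) and with the compared arrays alone (adjusted p = 0.0994). Signs turned for differences near 0, none of them called: Gsdmd between LPS+DHA5HT and DHA5HT (0.001 after centring, −0.0206 to 0.0344 when 1 array was left out), Nlrp3 with DHA5HT alone (−6e-04 with array weights, −0.0614 to 0.0657), Casp1 (−0.0693 to 0.0286) and Il1b (−0.0698 to 0.138) with DHA5HT alone, Pycard between LPS+DHA5HT and LPS (−0.043 to 0.0276) and Nod1 in the difference between effects (−0.0294 to 0.2821). Nod1 was not tested without dim genes, being one of them.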
